A study of Mus musculus with 9 samples.

Results

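The 10 genes Cdkn1a, Fas, Ccng1, Phlda3, Mdm2, Trp53inp1, Sesn2, Gadd45a, Btg2 and Perp are established transcriptional targets of p53, and they were followed here probe by probe. They were chosen by name, and every probe that the platform annotation assigns to one of these symbols was taken. This gave 24 probes for 10 of the 19057 gene symbols on the array, and 18 of these probes in 8 genes passed the filter on dim probes. Btg2 and Perp had no probe that passed.

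The study measured messenger RNA on 9 single-colour Illumina arrays with C57BL/6 mouse cells, 3 arrays for each of 3 groups. The first group (SSC) was cultured spermatogonial stem cells, which sustain sperm production in the testis. The second group was labelled putative female germ cells (PFGC), a name from the sample labels (the series title speaks of SSC turning into putative female stem cells), and the third was oocytes. Both of the latter were collected by magnet sorting, so sorting against culture cannot be told apart from cell type in any comparison with SSC. The sources used here name no treatment, genotype, age, donor, sorting antibody or passage. Whether the 3 arrays of a group stand for different cultures or animals is not said either, so the p-values rest on a spread that may be technical.

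The transcription factor p53 is held at low levels by the ubiquitin ligase Mdm2 and is released from it when DNA is damaged or the cell is otherwise stressed. It then binds DNA through pairs of short half-sites and raises genes that stop the cell cycle, repair DNA, restrain growth signalling or kill the cell, and also Mdm2, which closes a negative loop. In the female germ line its relative p63 is the family member known for guarding resting oocytes against DNA damage.

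Cdkn1a and Ccng1 are shown by sequence because their promoter windows held the longest matches to the p53 site among the 10 genes, while their probes behaved differently on the arrays. The windows are from RefSeq (GRCm38.p6) and run from 250 bases before to 50 bases after an annotated transcription start. The first is the more upstream of 2 Cdkn1a windows, at chr17:29090729-29091028 on the plus strand, and the second is that of Ccng1, at chr11:40755237-40755536 on the minus strand. Capitals mark p53 half-sites of 10 bases and the 20-base site with at most 1 mismatch.
Cdkn1a: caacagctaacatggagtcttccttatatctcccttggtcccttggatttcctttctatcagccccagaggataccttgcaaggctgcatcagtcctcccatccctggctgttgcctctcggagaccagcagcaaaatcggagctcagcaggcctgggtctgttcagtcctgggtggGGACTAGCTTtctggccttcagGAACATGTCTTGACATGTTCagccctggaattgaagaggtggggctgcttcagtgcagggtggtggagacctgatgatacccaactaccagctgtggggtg
Ccng1: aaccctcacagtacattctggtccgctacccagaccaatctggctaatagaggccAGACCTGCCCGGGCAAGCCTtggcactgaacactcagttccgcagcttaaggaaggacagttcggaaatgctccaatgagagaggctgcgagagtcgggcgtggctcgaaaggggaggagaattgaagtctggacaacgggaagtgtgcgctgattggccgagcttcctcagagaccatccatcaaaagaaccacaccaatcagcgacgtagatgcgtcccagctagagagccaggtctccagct

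The Cdkn1a site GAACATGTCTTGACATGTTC began at position -51 from the upstream start, and its first 10 bases matched the p53 half-site consensus in full. A further half-site, GGACTAGCTT, began at position -73. The other Cdkn1a window lies 2790 bases downstream, start to start, and held no half-site. In Ccng1 the 20-base site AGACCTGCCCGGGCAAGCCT began at position -195, and its second part, GGGCAAGCCT, was the full half-site. Single half-sites stood in the windows of Mdm2 (GAACTTGCCT, with its first base at position -186 from the start) and Gadd45a (GGGCTAGCCC, at position -40). The windows of Fas, Phlda3, Sesn2 and Btg2 held none. Sequence outside the windows, such as introns farther downstream, was not searched for any gene.

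In all, 4 of the 9 windows of the 8 members in the promoter table held a half-site, against 8.36% of all 32851 windows. A 20-base site with at most 1 mismatch was present in 22 of all windows (0.067%), those of Cdkn1a and Ccng1 among them. The half-site consensus reads the same on both strands, so 1 search covers both. Matches describe these letters only; nothing was measured about binding.

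The cyclin-dependent kinase inhibitor Cdkn1a (p21, chromosome 17) was the member that differed most between groups. Its brightest probe (ILMN_2634083) read 4.43, 4.44 and 4.61 on the SSC arrays, on the normalized log2 intensity scale used for all levels here. The PFGC arrays read 12.25, 11.98 and 11.74 and the oocyte arrays 12.47, 12.45 and 12.14. The probe was thus detected on every sorted array and on no SSC array, where the linear signal before normalization lay between 97.3 and 106, close to the array medians of 108 to 110 over all probes. PFGC and oocyte arrays overlapped.

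Because SSC gave only a bound for that probe, the difference was at least 105-fold in PFGC (means 11.99 ± 0.25 against 4.49 ± 0.10, SD, n = 3 each; limma adjusted p = 2.2e-10). In oocytes it was at least 135-fold (mean 12.35 ± 0.19; adjusted p = 1.46e-10). The other Cdkn1a probes were detected in SSC as well and gave smaller differences. Probe 2 (ILMN_2846775) read 6.19 ± 0.08 in SSC, 9.87 ± 0.17 in PFGC and 10.24 ± 0.14 in oocytes, and probe 3 (ILMN_2846776) read 5.57 ± 0.19, 9.24 ± 0.25 and 9.47 ± 0.07.

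Their log2 fold changes against SSC were 3.68 and 3.67 in PFGC and 4.04 and 3.90 in oocytes, each with no overlap of arrays. The size of the Cdkn1a difference therefore depended on the probe, while its direction and call did not. Between PFGC and oocytes none of the 3 probes was called. The log2 differences were -0.36 (95% interval -0.71 to -0.02), -0.37 (-0.66 to -0.07) and -0.23 (-0.58 to 0.11), with limma adjusted p = 0.173, 0.11 and 0.371. Without background correction the brightest probe gave 5.33 in PFGC and 5.69 in oocytes in place of 7.50 and 7.86. In these bulk samples a different share of cells that hold the transcript and a different amount of RNA per cell cannot be told apart.

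**Figure D1:**
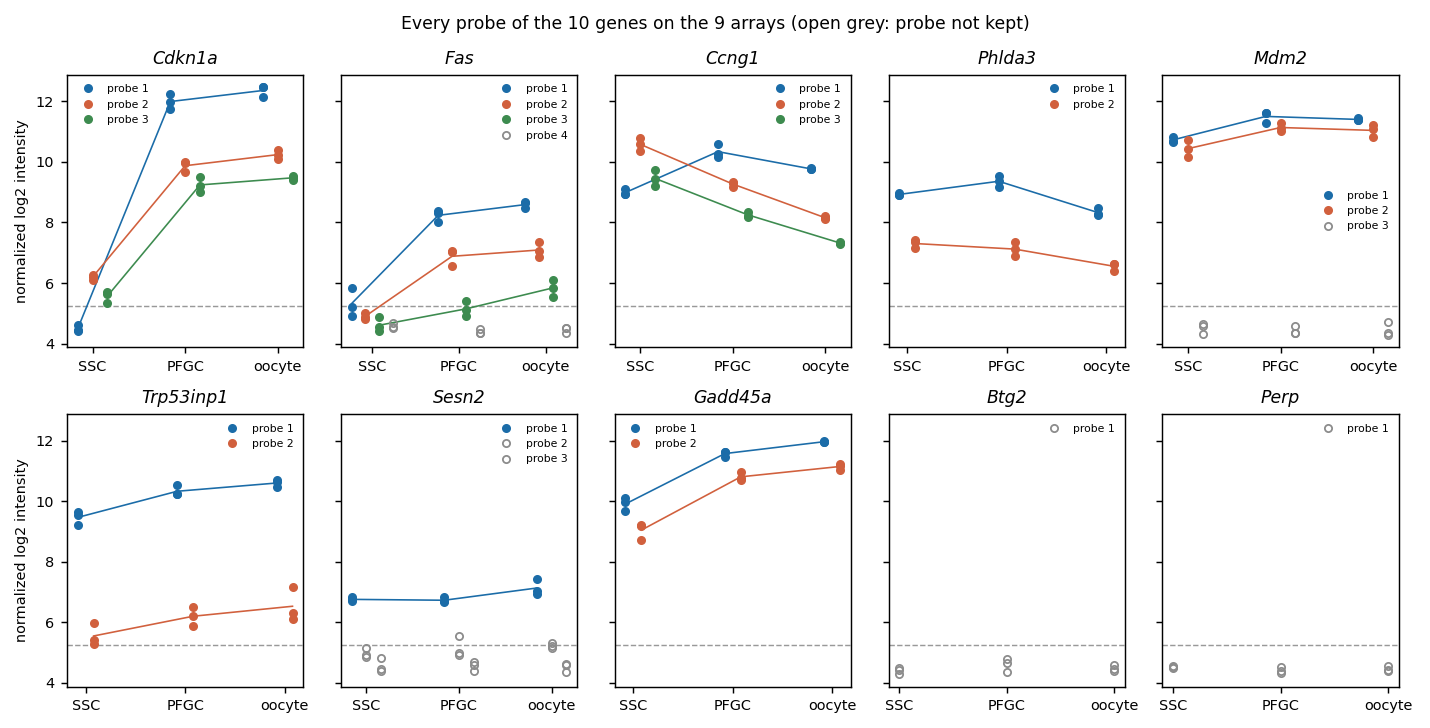
Normalized log2 intensity of each probe of the 10 genes on the 9 arrays, by group (SSC, PFGC, oocyte); points are single arrays, lines join the means of 3 arrays, open grey points are probes that did not pass the filter and the dashed line is the mean over arrays of the lowest detected value. The kept probes of Cdkn1a, Gadd45a and Mdm2 and the brightest probes of Fas and Trp53inp1 are higher in both sorted groups than in SSC, the probes of Ccng1 go opposite ways, and Btg2 and Perp stay under the dashed line.

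Gadd45a (chromosome 6), which encodes a small stress protein that binds p21 and PCNA and acts in cell-cycle arrest and DNA repair, was higher in both sorted groups on both probes. The brighter probe (ILMN_2742152) read 9.96, 9.67 and 10.09 in SSC, 11.63, 11.47 and 11.61 in PFGC, and 11.96, 11.94 and 11.98 in oocytes. All 3 groups were separate on this probe, in the order SSC, PFGC, oocyte. PFGC exceeded SSC by 1.66 ± 0.13 (log2, SE; 3.17-fold; limma adjusted p = 3.93e-06) and oocytes by 2.06 ± 0.13 (4.16-fold; adjusted p = 4.93e-07). The second probe (ILMN_2947568) gave 1.76 and 2.10.

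PFGC lay 0.39 below oocytes on the brighter probe, which did not pass (limma adjusted p = 0.0909) but did with the replicate number as a block (adjusted p = 0.0419). The second probe, at -0.34, passed in neither fit (adjusted p = 0.19 without the block).

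Ccng1 (chromosome 11) encodes cyclin G1, which recruits a phosphatase to Mdm2, and it was the 1 gene of the 10 whose probes were called in opposite directions. Its brightest probe (ILMN_2500276) read 9.10, 8.94 and 8.93 in SSC, 10.58, 10.15 and 10.27 in PFGC, and 9.78, 9.75 and 9.77 in oocytes. On this probe SSC was lowest and PFGC highest, with no overlap. PFGC exceeded SSC by 1.35 ± 0.13 (log2, SE; limma adjusted p = 1.97e-05) and oocytes exceeded SSC by 0.78 ± 0.13 (adjusted p = 0.000585).

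Probe 2 (ILMN_2710229) read 10.78, 10.60 and 10.36 in SSC, 9.18, 9.29 and 9.33 in PFGC, and 8.10, 8.22 and 8.13 in oocytes. Here SSC was highest and oocytes lowest, again with no overlap. PFGC lay 1.31 ± 0.13 below SSC (limma adjusted p = 2.04e-05) and oocytes 2.43 ± 0.13 below it (adjusted p = 1.41e-07). Probe 3 (ILMN_2702233) had the same order, with means of 9.45 ± 0.26, 8.25 ± 0.09 and 7.32 ± 0.04 and log2 differences from SSC of -1.20 and -2.13.

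All 3 Ccng1 probes carry the same transcript accession in the annotation, and which stretch of the transcript each one reads was not analysed here. With 1 value per gene as the mean of its probes, Ccng1 turned to -0.39 in PFGC and -1.26 in oocytes against SSC. What the 3 probes shared was the order of the sorted groups: PFGC exceeded oocytes by 0.57, 1.11 and 0.93 (limma adjusted p = 0.0291, 0.000698 and 0.00376). The first of these was lost, with adjusted p between 0.0579 and 0.0973, when PFGC replicate 1 or 3 or any single oocyte array was left out.

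**Figure D2:**
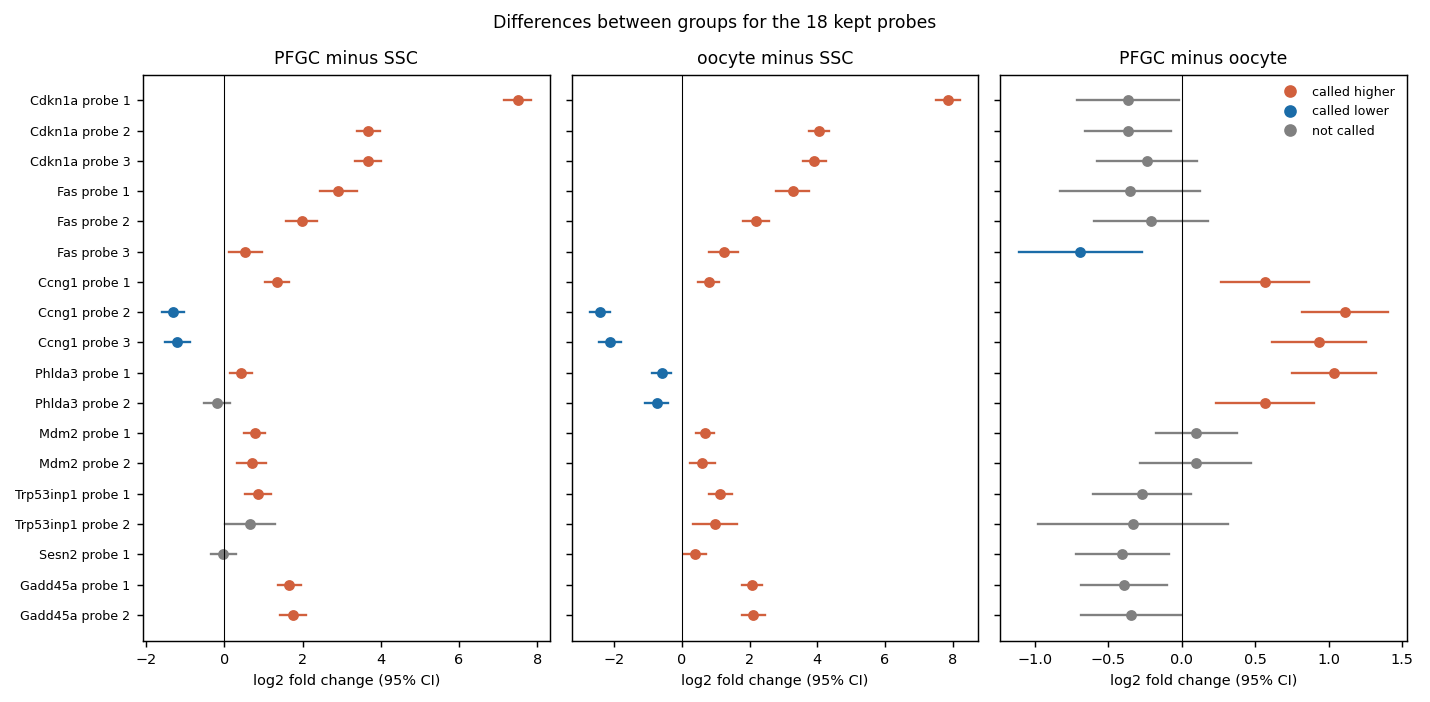
Log2 fold change with its 95% interval for the 18 kept probes in the comparisons PFGC minus SSC, oocyte minus SSC and PFGC minus oocyte; colours give the limma call at an adjusted p under 0.05. The 3 Cdkn1a probes and the brightest Fas probe lie farthest to the right in the first 2 panels, Ccng1 probe 1 lies opposite to probes 2 and 3 there, and in the PFGC minus oocyte panel the called values above 0 belong to Ccng1 and Phlda3.

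Phlda3 and Sesn2 act in growth signalling and stress metabolism. Phlda3 (chromosome 1), whose product competes with Akt for membrane lipids and so restrains Akt, read 8.96, 8.90 and 8.91 in SSC, 9.53, 9.37 and 9.17 in PFGC, and 8.46, 8.26 and 8.24 in oocytes on its brighter probe (ILMN_2923607). PFGC was highest and oocytes lowest, with no overlap. The differences were 0.43 for PFGC against SSC (limma adjusted p = 0.0179), -0.60 for oocytes against SSC (adjusted p = 0.00238) and 1.04 for PFGC against oocytes (adjusted p = 0.000972).

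The second Phlda3 probe (ILMN_2628567) read 7.30 ± 0.14 in SSC, 7.12 ± 0.23 in PFGC and 6.55 ± 0.13 in oocytes. It gave no call for PFGC against SSC (-0.18, 95% interval -0.51 to 0.15; limma adjusted p = 0.335), but the same calls as the first for the other comparisons (-0.75 and 0.57). Oocytes were thus lowest on both probes, whereas the rise in PFGC over SSC rested on 1 probe. That rise was also lost without PFGC replicate 1 (0.35, adjusted p = 0.073). The second probe's 0.57 over oocytes was lost without PFGC replicate 2 or 3, SSC replicate 1 or any single oocyte array (adjusted p from 0.0601 to 0.152).

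Sesn2 (chromosome 4), whose product restrains mTORC1 when leucine is scarce or the cell is under oxidative stress, differed least from SSC among the 8 genes in both sorted groups. Its kept probe (ILMN_2948945) read 6.82, 6.69 and 6.76 in SSC, 6.83, 6.66 and 6.69 in PFGC, and 7.42, 7.05 and 6.93 in oocytes. SSC and PFGC overlapped, and PFGC differed from SSC by -0.03 (95% interval -0.35 to 0.29). Oocytes lay 0.37 above SSC (limma adjusted p = 0.0457), with no overlap. This call was lost, with adjusted p from 0.0556 to 0.184, without any single SSC or PFGC array or without oocyte replicate 1 or 2, and 15 of the 26 other settings run lost it. PFGC lay 0.40 below oocytes, which did not pass (limma adjusted p = 0.108) but did with the replicate number as a block (adjusted p = 0.0433). Of the Sesn2 probes not kept, ILMN_1219984 was detected on 1 PFGC and 1 oocyte array and ILMN_1229465 on no array.

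Mdm2 (chromosome 10), the ubiquitin ligase that marks p53 for degradation, was higher in both sorted groups. The brighter probe (ILMN_1250774) read 10.70, 10.82 and 10.66 in SSC, 11.60, 11.29 and 11.60 in PFGC, and 11.43, 11.39 and 11.37 in oocytes. PFGC and oocytes overlapped and both stood clear of SSC. PFGC exceeded SSC by 0.77 ± 0.12 (log2, SE; 1.71-fold; limma adjusted p = 0.000531) and oocytes by 0.67 ± 0.12 (1.59-fold; adjusted p = 0.000937). The second kept probe (ILMN_2850753) gave 0.70 and 0.60. A further Mdm2 probe (ILMN_1229882) was detected on no array. PFGC and oocytes differed by 0.10 on the brighter probe (95% interval -0.18 to 0.38).

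Of the genes that act in cell death, Fas (chromosome 19), the death receptor for Fas ligand, was higher in both sorted groups on its 2 brighter probes. Its brightest probe (ILMN_2902979) read 5.22, 4.91 and 5.84 in SSC, where it was detected on 1 of 3 arrays. It read 8.38, 8.02 and 8.30 in PFGC and 8.46, 8.64 and 8.66 in oocytes, detected on every array of both. Neither sorted group overlapped SSC. The log2 differences from SSC were 2.91 ± 0.21 in PFGC (SE; limma adjusted p = 2.31e-06) and 3.27 ± 0.21 in oocytes (adjusted p = 5.64e-07). Background in SSC limits their size, and over the other settings run they fell as low as 1.61 in PFGC and 1.89 in oocytes, still called.

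Fas probe ILMN_2479290 was undetected in SSC and at least 3.05-fold higher in PFGC (means 6.88 against 4.91; adjusted p = 8.33e-06) and 3.53-fold in oocytes (mean 7.09; adjusted p = 2.56e-06). Fas probe ILMN_2582933, which the annotation assigns to a separate clone sequence, read 4.61 ± 0.24, 5.15 ± 0.25 and 5.84 ± 0.28. It was detected on no SSC array, 1 PFGC array and every oocyte array, so it passed the filter through the oocytes. SSC and PFGC were both near background on this probe, and although limma called PFGC higher (adjusted p = 0.0379) no size is given. That call was lost in 12 of 23 other settings, among them the removal of PFGC replicate 1 or 2 or SSC replicate 1 or 2 (adjusted p from 0.0735 to 0.137). Oocytes were at least 1.48-fold above SSC (adjusted p = 0.000287). It was the 1 Fas probe called lower in PFGC than in oocytes (-0.69, limma adjusted p = 0.0494), a call that 18 of 23 other settings lost. Those settings included the removal of any single PFGC or oocyte array or of SSC replicate 1 or 2. The remaining Fas probe (ILMN_2454420) was detected on no array.

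Trp53inp1 (chromosome 4), a stress protein that promotes p53-dependent death and autophagy, was higher in both sorted groups. The brighter probe (ILMN_2506012) read 9.55, 9.63 and 9.22 in SSC, 10.53, 10.22 and 10.22 in PFGC, and 10.70, 10.64 and 10.45 in oocytes. PFGC and oocytes overlapped, and neither overlapped SSC. The log2 differences from SSC were 0.86 ± 0.15 in PFGC (SE; limma adjusted p = 0.000898) and 1.13 ± 0.15 in oocytes (adjusted p = 9.95e-05).

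On the dimmer Trp53inp1 probe (ILMN_2971479) the group means were 5.55 ± 0.37, 6.20 ± 0.32 and 6.53 ± 0.57. Oocytes exceeded SSC by 0.98 (limma adjusted p = 0.0145), though not without SSC replicate 1 (adjusted p = 0.0565). PFGC exceeded SSC by 0.65, which missed the threshold (adjusted p = 0.089). It passed with the replicate number as a block (adjusted p = 0.00534), without SSC replicate 3 (0.0423) and without oocyte replicate 3 (0.0329).

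Perp and Btg2 gave no signal above background. Perp (chromosome 10), a membrane protein of desmosomes that is needed for p53-dependent apoptosis in some cells, had 1 probe, with linear signals before normalization of 92.1 to 111. Btg2 (chromosome 1), an antiproliferative adaptor of the CCR4-NOT deadenylase, had 1 probe as well, at 92.1 to 117. Neither was detected on any of the 9 arrays, so no difference was tested for them and a transcript that these probes miss would not be seen.

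Counted by the brightest probe, 7 of the 8 tested genes were higher in PFGC than in SSC (all but Sesn2), beside 23.7% of all 11077 genes tested, and 0 were lower, beside 26.8%. At an unadjusted p under 0.05 limma also gave 7 and 0. In oocytes 7 were higher than in SSC (28.1% of all genes) and 1, Phlda3, was lower (32.4%). Over the 18 kept probes, 13 were called higher and 2 lower in PFGC (21.9% and 26.2% of all 19934 probes; the dimmest Fas probe is 1 of the 13), and 14 higher and 4 lower in oocytes (27.3% and 30.3%).

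The median log2 difference from SSC over the 8 genes was 1.11 in PFGC and 0.96 in oocytes, against -0.06 and -0.07 over all genes. These counts describe the members that passed the filter and carry no test: 4 of the 18 probes, those of Fas and the brightest of Cdkn1a, passed without being detected on every array. Of these, the Cdkn1a probe and 2 of Fas, detected on no SSC array, passed only through the sorted groups and so had to be higher there. The brightest Fas probe was detected on 1 SSC array and could not have passed without the sorted groups either.

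Between the sorted groups, 2 of the 8 genes, Ccng1 and Phlda3, were higher in PFGC (6.8% of all genes) and 0 were lower (3.3%). With limma at an unadjusted p under 0.05 the counts were 2 and 3, and the fit with the replicate number as a block called 2 lower, Gadd45a and Sesn2. By probe, 5 were higher and 1 lower in PFGC (5.54% and 3.63% of all probes), and 3 were lower with the block. The median over the 8 genes was -0.31, against -0.01 over all genes. Ccng1 and Phlda3 were also the 2 members called higher in PFGC than in both other groups, a pattern of 0.623% of all genes. No member was called lower in PFGC than in both (0.144% of all genes), also at an unadjusted p. For Ccng1 that position held on the brightest probe and not on the other probes, and for Phlda3 on 1 probe of 2. The 3 comparisons share groups, so their values for a gene are not independent of each other.

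Profiles over the 9 arrays were compared with that of the brightest Cdkn1a probe, each centred on its own mean. Among 11069 genes outside the members the closest were Omt2a (root mean square difference 0.22 log2 units), Oas1d (0.225), Omt2b (0.243), Padi6 (0.274) and Bcl2l10 (0.306). Their SSC means lay between 4.31 and 4.57, at background, and their PFGC and oocyte means between 11.60 and 12.11. The reference probe was undetected in SSC, so the depth of its profile there is set by background and the distances rest on that probe. Distances from the other Cdkn1a probes were not computed.

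**Figure D3:**
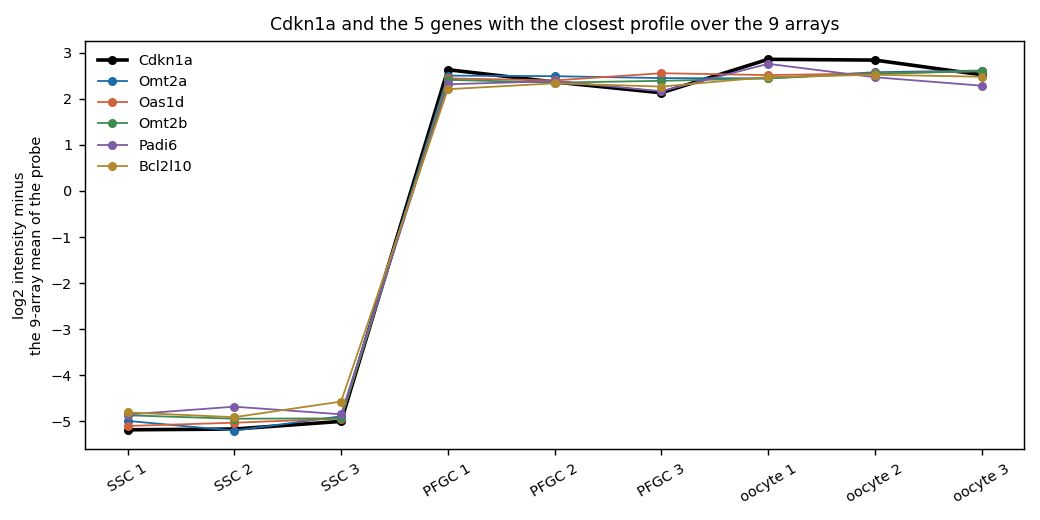
Log2 intensity of Cdkn1a (black) and of the 5 genes with the closest profile, each minus its own mean over the 9 arrays; the horizontal axis lists the arrays by group and replicate. All lines lie between -5.20 and -4.57 on the SSC arrays and between 2.13 and 2.86 on the PFGC and oocyte arrays.

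No probe was assigned to the symbol Trp53 alone, so Trp53 itself could not be followed here. Of its relatives, Trp63, which encodes p63, had a kept probe (ILMN_1216742) that read 5.41, 5.14 and 4.76 in SSC, 7.61, 7.48 and 6.97 in PFGC, and 7.25, 7.34 and 6.97 in oocytes. It was detected on 1 SSC array and on all sorted arrays, and PFGC and oocytes overlapped. The probe could not have passed the filter without the sorted groups, and background limits the size of its differences from SSC. The log2 differences from SSC were 2.25 ± 0.21 in PFGC (SE; limma adjusted p = 1.28e-05) and 2.09 ± 0.21 in oocytes (adjusted p = 1.42e-05), and the 2 sorted groups differed by 0.16 (95% interval -0.31 to 0.63). A second Trp63 probe and the probe of Trp73 were detected on no array.

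Mdm4, which binds p53 together with Mdm2 and blunts its activity, lay near background. Its brighter kept probe read 5.85 ± 0.19 in SSC and 4.96 ± 0.48 in PFGC (-0.89, limma adjusted p = 0.0113). It was detected on 3 SSC arrays and on 1 PFGC array, so background limits the size of that difference. The other kept probe was not called in any comparison.

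In the wider list of p53 family members and regulators, 19 of 25 genes were tested. In PFGC 4 were higher and 4 lower than in SSC, with a median of 0.02. In oocytes 6 were higher and 4 lower, with a median of 0.17. The shares were 21.1% each way in PFGC and 31.6% and 21.1% in oocytes, beside those of all genes given above. Cdkn2a, whose locus encodes the Mdm2 antagonist Arf as well as the CDK4/6 inhibitor p16, read 8.31 ± 0.68 in SSC, 6.39 ± 0.24 in PFGC and 4.91 ± 0.35 in oocytes and was lower in both (limma adjusted p = 0.000551 and 6.59e-06). It was detected on 1 of the 3 oocyte arrays, so its log2 difference is given for PFGC alone, at -1.92.

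The checkpoint kinase Chek1 was undetected in SSC and at least 2.25-fold higher in PFGC and 2.65-fold in oocytes (adjusted p = 3.12e-05 and 7.42e-06). Atm, the kinase that signals DNA breaks, was lower in both sorted groups (-1.15 in PFGC and -1.15 in oocytes, limma adjusted p = 4.61e-05 and 3.09e-05). Hipk2, a kinase of p53, rose by 0.98 in PFGC and 1.52 in oocytes (limma adjusted p = 0.000147 and 4.08e-06). It lay lower in PFGC than in oocytes (-0.54, limma adjusted p = 0.0309). Its probes ranged from -0.27 to 1.27 in PFGC and from -0.21 to 1.53 in oocytes. Between the sorted groups 2 regulators were higher in PFGC, Cdkn2a (adjusted p = 0.0175) and the checkpoint kinase Chek2 (0.71), and Hipk2 was the 1 lower. These were 10.5% and 5.26% of the list, beside 6.8% and 3.3% of all genes.

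A second list held 36 other p53 targets, of which 28 were tested. In PFGC 10 were higher and 9 lower than in SSC (35.7% and 32.1%, beside 23.7% and 26.8% of all genes), with a median of 0.24. In oocytes 12 were higher and 11 lower (42.9% and 39.3%, beside 28.1% and 32.4%), with a median of 0.05. The wider targets thus moved both ways. By their brightest probes the members tested were mostly higher, a count that carries no test. Within it, the rises of Ccng1 and Phlda3 rested on 1 probe each, and the brightest Cdkn1a probe passed the filter only through the sorted groups.

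Plk2, a polo-like kinase of the stress response, rose by 2.11 in PFGC and 2.32 in oocytes (limma adjusted p = 1.29e-06 and 3.75e-07). Ephx1, which encodes microsomal epoxide hydrolase, rose by 2.07 in PFGC (adjusted p = 9.44e-07). Tap1, a subunit of the peptide transporter for antigen presentation, was undetected in SSC and at least 2.56-fold and 3.37-fold higher (adjusted p = 1.72e-05 and 2.59e-06). Plk3, another polo-like kinase, rose by 1.81 in oocytes (adjusted p = 3.16e-06).

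Abhd4, a lipid hydrolase, read 11.86 ± 0.14 in SSC, 10.21 ± 0.16 in PFGC and 9.81 ± 0.20 in oocytes (-1.65 and -2.05; adjusted p = 8.47e-06 and 1.06e-06). PFGC exceeded oocytes in 3 other targets and lay below them in 0 (10.7% and 0%, beside 6.8% and 3.3% of all genes). At an unadjusted p under 0.05 limma gave 8 and 4. The 3 were Ephx1 (0.79, adjusted p = 0.0064), the carbonyl reductase Dcxr (0.63, adjusted p = 0.0357) and the DNA repair factor Ddb2 (0.47, adjusted p = 0.0424). With the replicate number as a block 6 were higher. Of the 41 promoter windows of these other targets, 12 held a p53 half-site.

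**Figure D4:**
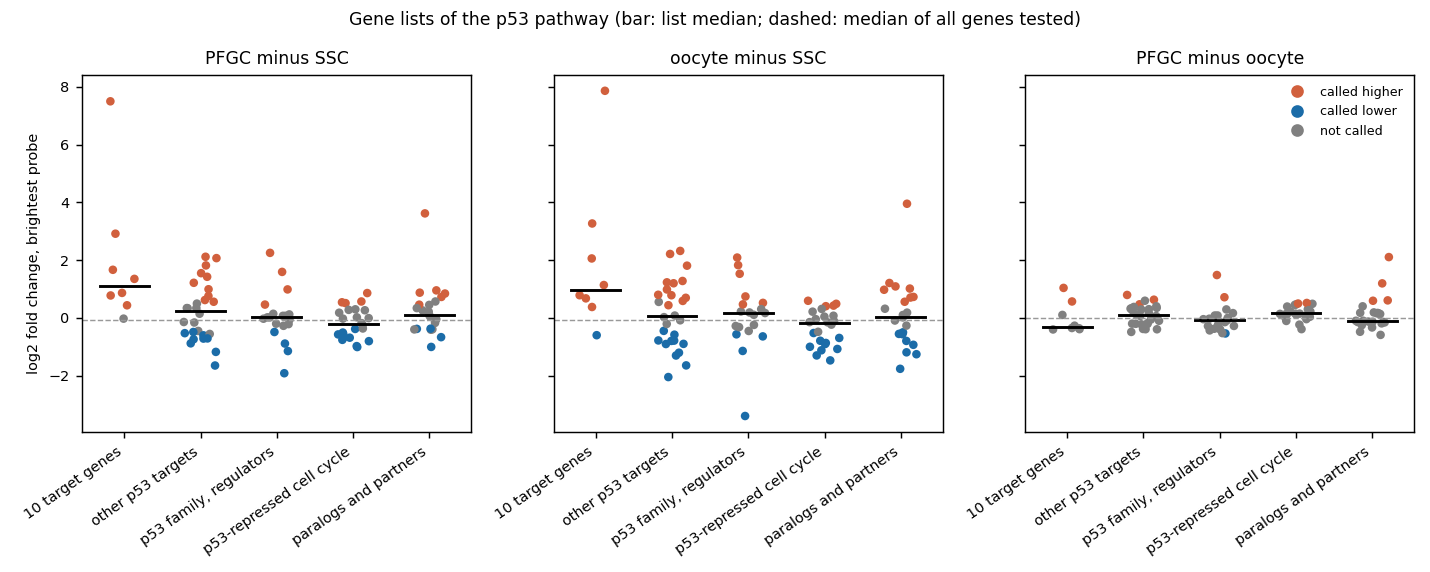
Log2 fold change of the brightest kept probe of each tested gene in 5 lists, for the 3 comparisons; colours give the limma call, black bars the list median and the dashed line the median of all genes tested. The 8 tested members have medians of 1.11 and 0.96 in the first 2 panels, while the other p53 targets spread to both sides of 0.

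Genes that p53 represses through p21 and the DREAM complex, most of them of DNA replication and mitosis, formed another list. Of 24 tested, 4 were higher and 10 lower than SSC in PFGC, and also 4 and 10 in oocytes, with medians of -0.22 and -0.20. These counts are 16.7% and 41.7% of the list, beside 23.7% and 26.8% of all genes in PFGC and 28.1% and 32.4% in oocytes. Of the 4 minichromosome maintenance genes tested, which encode subunits of the replicative helicase, Mcm2, Mcm3 and Mcm5 were lower in both groups and Mcm6 was not called (-0.25 in PFGC and -0.24 in oocytes; limma adjusted p = 0.275 and 0.281). Mcm2 differed by -1.01 in PFGC and -1.47 in oocytes (limma adjusted p = 0.000509 and 2.53e-05), Mcm3 by -0.98 and -1.13, and Mcm5 by -0.81 and -1.30.

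The phosphatase Cdc25c, which activates Cdk1, lay at -0.69 in PFGC and -1.08 in oocytes (limma adjusted p = 0.000612 and 1.85e-05). Birc5, which encodes survivin, was higher by 0.86 in PFGC and 0.59 in oocytes (limma adjusted p = 0.000225 and 0.00184). Mcm5 and the mitotic kinase Aurkb were higher in PFGC than in oocytes (0.49 and 0.51; adjusted p = 0.0203 and 0.0396), and 0 of this list were lower, also at an unadjusted p under 0.05. The called shares were 8.33% higher and 0% lower, beside 6.8% and 3.3% of all genes.

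The last list held paralogs and partners of the members, such as other CDK inhibitors, cyclins and Gadd45 genes, of which 23 of 24 were tested. In PFGC 6 were higher and 4 lower than in SSC, and in oocytes 8 and 9, with medians of 0.10 and 0.02. The shares were 26.1% and 17.4% in PFGC and 34.8% and 39.1% in oocytes, beside the same shares of all genes. Phlda1, a paralog of Phlda3, read 7.58 ± 0.29 in SSC, 11.19 ± 0.10 in PFGC and 11.53 ± 0.17 in oocytes and was higher in both (3.62 and 3.95; limma adjusted p = 6.42e-08 and 1.89e-08). Gadd45g rose by 0.95 in PFGC and 1.09 in oocytes (limma adjusted p = 0.000199 and 5.21e-05). Btg1, a paralog of Btg2, rose by 0.87 in PFGC and 1.01 in oocytes (limma adjusted p = 0.00694 and 0.00223).

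Cdkn1b (p27), a CDK inhibitor related to p21, rose by 0.72 in PFGC and 1.21 in oocytes (limma adjusted p = 0.00942 and 0.000308). Cdk2, the kinase that p21 inhibits, was lower in both sorted groups. Its log2 differences from SSC were -1.01 in PFGC and -1.19 in oocytes (limma adjusted p = 0.00162 and 0.000388). Cyclin D1 (Ccnd1) was lower in oocytes than in SSC (-1.77, adjusted p = 1.28e-06) and than in PFGC (PFGC minus oocyte 2.10, adjusted p = 7.34e-06). The CDK inhibitors Cdkn2b, Cdkn2c and Cdkn2d were also higher in PFGC than in oocytes, by 1.19, 0.60 and 0.59 (adjusted p = 0.0109, 0.0301 and 0.0215). Cdkn2d was lower than SSC in both sorted groups (-0.67 in PFGC and -1.26 in oocytes, limma adjusted p = 0.00174 and 1.62e-05). No gene of the list was lower in PFGC than in oocytes, with 2 at an unadjusted p under 0.05 in limma. The called shares were 17.4% higher and 0% lower in PFGC, beside 6.8% and 3.3% of all genes.

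Markers of several cell types were also counted. Of all genes, 23.7% were higher and 26.8% lower in PFGC than in SSC, and 28.1% and 32.4% in oocytes. Of 12 oocyte markers, 11 were higher than SSC in PFGC and in oocytes, and Sohlh1 was lower in both (-1.33 and -2.39; limma adjusted p = 8.05e-05 and 6.79e-07). In this list Bmp15, Figla, Zp2, Zp3, Nlrp5 and Kit were undetected in SSC. On the linear scale the levels of all 12 oocyte markers summed to between 4626 and 4906 on the SSC arrays. The PFGC arrays gave 23220 to 26105 and the oocyte arrays 26882 to 27466, and the sums below follow the same order of groups. All 12 spermatogonial markers were lower in both sorted groups, with sums of 6196 to 8175, 1877 to 2287 and 1315 to 1496; Gfra1, Nanos3 and Thy1 were undetected in oocytes. Sertoli markers were detected in full in SSC, with sums of 81590 to 86348 over 10 genes, and 8 of the 10 were lower in both sorted groups (17217 to 26637 in PFGC, 4221 to 4611 in oocytes). In oocytes Amh, Dhh and Defb36 were undetected.

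Granulosa markers rose in 8 of 11 genes in both groups, and the other 3, Fshr, Amh and Amhr2, were lower in both (14977 to 19034, 25254 to 26822 and 28480 to 29951), with Foxl2, Fst, Nr5a2 and Esr2 undetected in SSC. Endothelial markers rose in 10 of 11 (1935 to 2265, 4756 to 5170 and 6530 to 7233). Interferon-stimulated genes rose in 14 of 15 in PFGC and 15 of 15 in oocytes (3527 to 4498, 39243 to 41347 and 50284 to 51287). Immediate early and dissociation stress genes rose in 13 and 15 of 21, with Myc lower in both (63248 to 71201, 101283 to 109819 and 116279 to 123634).

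Macrophage markers rose in 2 and 4 of 8 (914 to 1059, 1086 to 1371 and 1861 to 2183). Fibroblast markers rose in 2 and 3 of 11 and fell in 4 and 3 (34663 to 41627, 25259 to 27048 and 28368 to 30694). The higher share of macrophage markers in PFGC (25%) lay near that of all genes. So did the fibroblast shares in PFGC and oocytes (18.2% and 27.3% higher, 36.4% and 27.3% lower). The part of these cell types, of interferon and of handling stress in the differences of the 10 genes was not tested.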

How the data were processed

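Expression was measured on Illumina mouse arrays of 3 SSC, 3 PFGC and 3 oocyte samples, grouped by their titles. Per the file headers, the deposited table gives for each probe a non-normalized signal intensity and a detection p-value on every array. GenomeStudio is named in the submitters' processing notes, its version not given in the sources used here. An alternative used the authors' processed intensity table, which is linear, has a median of about 112 on each array and states no method. Between 38.9% and 41.8% of the 45281 probes were detected per array, at median signals of 104 to 122, and precision is set by the 3 arrays per group (median SE of a log2 difference 0.165). By correlation within groups no array stood apart (r 0.973 to 0.995 across probes), and no pair was identical. The arrays numbered 3 deviated most from their group means (median absolute deviation 0.163 in SSC, 0.143 in PFGC and 0.135 in oocytes).

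Intensity was background-corrected by normexp, with the negative-control level inferred from detection p-values and an offset of 16, then quantile normalized and taken to log2 (limma 3.58.1, R 4.3.3). Probes with detection p under 0.01 on at least 3 arrays were kept (19934). All 9 arrays entered 1 limma fit, two-sided, with Benjamini-Hochberg adjustment over all kept probes and calls at an adjusted p under 0.05; the fit was tested on simulated data. A gene is its kept probe with the highest mean (11077 genes). An "at least" fold sets the bright group's mean against, per array, the higher of the dim probe's value and the lowest value of any detected probe. Symbols are those of the platform annotation, updated through Entrez identifiers in a RefSeq table (99.8% of 34885 probes with 1 symbol matched; 18 had several and 10378 none). Probe sequences were not aligned.

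Replicate numbers come from the titles. In each of the 9 same-numbered pairs of arrays the deviations from the group means correlated (r = 0.136 to 0.564), so the fit with the number as a block is given where it changes a call. Arrays numbered 1 and 2 of different groups correlated to a like degree (r = 0.0847 to 0.246), so the numbers 1 and 2 are hardly told apart. Arrays numbered 3 correlated negatively with both (r = -0.424 to -0.194). Deviations within a group cancel out, so that sign follows from the positive values for numbers 1 and 2. Named genes are the 10 members, Trp53, Trp63, Trp73 and Mdm4, up to 4 called genes per list and comparison by size, and the 5 nearest to Cdkn1a. A gene named for 1 comparison may therefore also differ in another. The members, lists and tests were chosen with earlier results of these data known.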

Additional observations from a re-analysis of the deposited data

How the results depend on the processing

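Of 39 called differences of member probes, 26 kept direction and call in every setting run (at most 26 per result); the cause of the other changes was not tested. Counts below are for the brightest probe per gene unless probes are named. Against SSC, the mean of a gene's probes made 1 member lower in PFGC and 2 in oocytes, and turned Ccng1 to -0.388 and -1.26; without normalization 0 were lower in oocytes. PFGC minus oocyte was less stable. Members higher numbered 1 with 75th percentile scaling and 1 without normalization, other targets higher 5 without background correction, 5 on the authors' processed values, 0 without normalization, 7 with array weights and 6 with the replicate block, and member probes higher 3 without normalization. Members lower numbered 1 without background correction, on the authors' values, without normalization and with trend and robust, 3 with array weights and 2 with the replicate block; other targets lower 1 without normalization, 2 with array weights and 1 with only the 2 groups compared. Member probes lower numbered 2 without background correction and on the authors' values, 3 without normalization and with the replicate block, 6 with array weights, and 0 with offset 50, 75th percentile scaling, cyclic loess, no filter or detection on all 9 arrays. Members above both groups numbered 1 with 75th percentile scaling and 0 without normalization or with the mean of probes. Beyond the replicate block values given in the text, it changed no other member call.

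Leaving out arrays gave, against SSC, 6 to 7 members higher in PFGC and 6 to 7 in oocytes. Member probes higher numbered 10 to 14 in PFGC and 11 to 14 in oocytes. Other targets higher numbered 8 to 12 in PFGC and 10 to 13 in oocytes, and other targets lower 4 to 11 and 7 to 11. For PFGC minus oocyte, leaving out arrays gave 1 to 2 members, 0 to 3 other targets and 2 to 5 member probes higher. It also gave 0 to 1 member probes lower, and 0 to 2 members above both groups. Values near 0 changed sign: Sesn2 in PFGC minus SSC (-0.081 to 0.00499 with arrays left out, 0.105 with cyclic loess, 0.00419 without SSC replicate 1, 0.00499 without PFGC replicate 2) and Mdm2 in PFGC minus oocyte (-0.197 and -0.194 without normalization, -0.0158 to 0.183 with arrays left out, the lowest without oocyte replicate 3). Without normalization the median probe difference moved to -0.14 (PFGC minus SSC), 0.10 (oocyte minus SSC) and -0.26 (PFGC minus oocyte), from -0.07, -0.05 and -0.04, and the higher share of calls to 59% from 47.4% in oocyte minus SSC and to 27.8% from 60.4% in PFGC minus oocyte. The counts of probes called for PFGC minus oocyte were 2225 higher and 2271 lower with array weights and 1798 and 1679 with the block, against 1104 and 723. The offset and background setting limit the size of differences from probes undetected in SSC.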
